A study of Mus musculus with 10 samples.

Results

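The platelet-derived growth factors (PDGF) and their receptors were examined as 6 genes: the ligand genes Pdgfb, Pdgfa, Pdgfc and Pdgfd and the receptor genes Pdgfra and Pdgfrb. The members were chosen by gene name, and all 6 were found among the 24704 genes measured. RNA came from mouse liver sinusoidal endothelial cells (LSEC), which line the capillaries of the liver and were taken straight from the animal. There were 5 Gata4-LSEC-KO arrays and 5 control arrays. The Gata4-LSEC-KO mice combined the driver C57BL/6N-Tg(Clec4g-icre)1.1Sgoe with a floxed Gata4 gene (STOCK Gata4tm1.1Sad/J). The recombinase was thus driven from control sequences of Clec4g, a gene of sinusoidal endothelium, and Gata4 encodes a zinc finger transcription factor. The control arrays came from sibling mice that carry the label WT. The labels state neither which of the 2 alleles the siblings carried nor the age and sex of the mice. Each array held RNA of cells pooled from 3 mice and captured on beads that bind CD146, which Mcam encodes.

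PDGF chains are secreted as dimers that bind receptor tyrosine kinases. PDGF-A and PDGF-C act mainly through PDGFR-alpha, PDGF-D mainly through PDGFR-beta, and PDGF-B through both. In many vessels endothelial cells release PDGF-B and the pericytes around them carry PDGFR-beta. In the liver the receptors are known from hepatic stellate cells, the pericytes of the sinusoid, which respond to PDGF by dividing and migrating.

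Values are log2 RMA values, one probe set per gene, so levels of different genes are not compared. The targeted gene did not separate the groups: its probe set read 8.59 ± 0.24 in Gata4-LSEC-KO and 8.71 ± 0.15 in control arrays (SD, n = 5 each). The limma fit gave it a log2 fold change of -0.12 ± 0.13 (SE) and an adjusted p of 0.742, and no source used here places its probes relative to the deleted part, which leaves the genotype unchecked by this value. Pan-endothelial genes such as Pecam1 and Cdh5 were bright in both groups, with a median list mean of 10.18 in Gata4-LSEC-KO and 10.16 in control arrays. None of 8 passed the limma test, and 1 had an unadjusted p under 0.05, where 13.6% of all genes did. The list means of sinusoidal markers (Stab2, Clec4g and 10 others) spanned 10.54 to 11.05 in Gata4-LSEC-KO and 10.97 to 11.23 in control arrays. By limma 3 of 12 passed as lower, where 0.846% of all genes did: Bmp2 (by 1.07), Clec4g (by 0.76) and Mrc1 (by 0.57 on the log2 scale). Bmp2 kept its call without any 1 array, Clec4g lost it without Gata4-LSEC-KO replicate 1 or 2 or control replicate 2, 3 or 4, and Mrc1 kept it only without Gata4-LSEC-KO replicate 3 or 5 or control replicate 1. The hepatocyte list mean was 6.43 to 7.85 in Gata4-LSEC-KO and 6.57 to 6.93 in control arrays. By limma 2 of 9 markers passed, where 2.14% of all genes did, in opposite directions: Tat rose by 2.06 (adjusted p = 0.0210) and Cyp2e1 fell by 1.52 (adjusted p = 0.0268). Tat lost its call without Gata4-LSEC-KO replicate 1 or control replicate 3, 4 or 5, and Cyp2e1 without Gata4-LSEC-KO replicate 1 or 2 or control replicate 3, 4 or 5. The lymphocyte list mean was 3.28 to 3.44 in Gata4-LSEC-KO and 3.02 to 3.42 in control arrays, and 0 of 7 markers passed by limma or had an unadjusted p under 0.05. Mcam, whose product served for the isolation, read 8.91 to 9.14 in Gata4-LSEC-KO and 7.48 to 7.96 in control arrays. Whether this difference changed which cells were captured was not tested. Control replicate 1 stood apart: its correlation across genes with any other array was between 0.920 and 0.944, while the other 9 arrays correlated with each other at 0.969 or above. Where leaving it out changed a call, or moved a named value or a list median by over 1.5 times, the value without it is given beside the result.

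Of the PDGF genes, Pdgfb alone passed the threshold, an adjusted p under 0.05 by limma. That is 1 of 6 members, where 2.14% of all genes tested passed. Pdgfb was 4.35-fold higher in Gata4-LSEC-KO cells. Pdgfc, Pdgfd, Pdgfra and Pdgfrb lay higher without passing, and Pdgfa differed by -0.06 on the log2 scale.

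**Figure D1:**
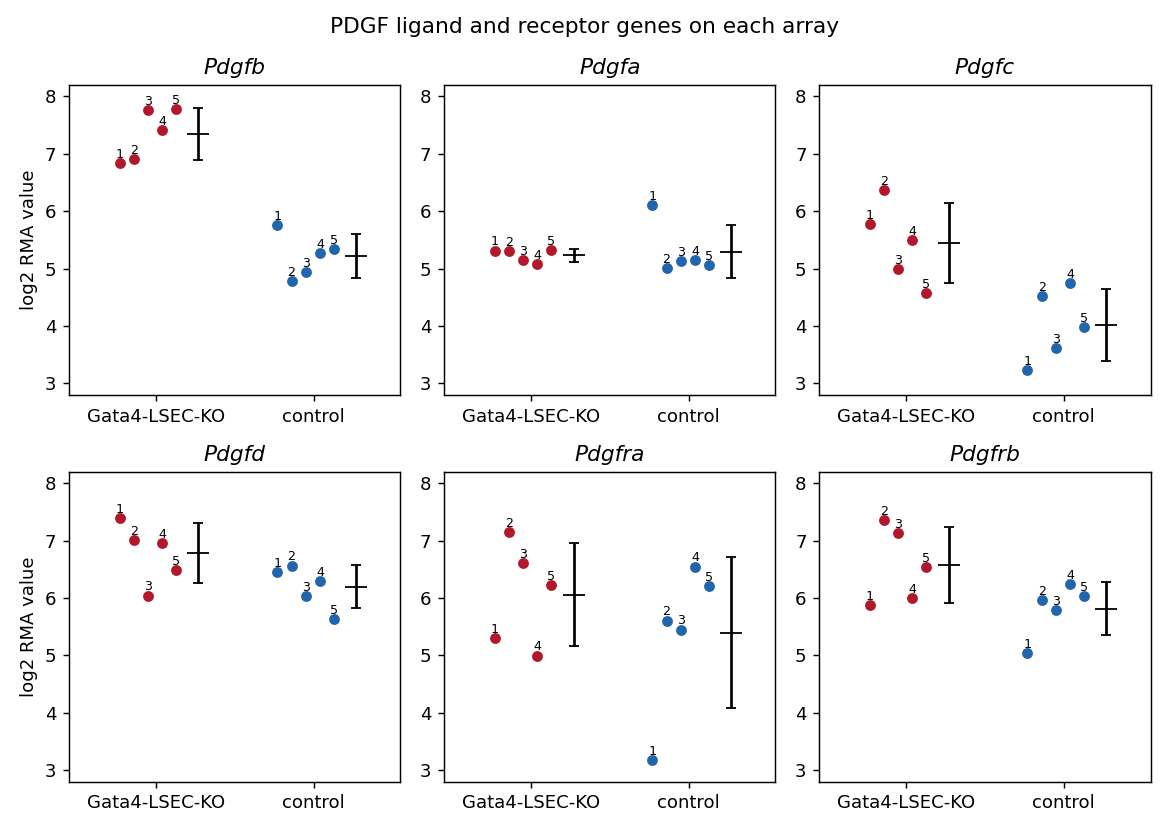
Log2 RMA value (y axis) of each PDGF ligand and receptor gene on the 5 Gata4-LSEC-KO arrays (red) and the 5 control arrays (blue), numbered by replicate, with group mean and SD in black. Pdgfb separates the groups, Pdgfa has 1 high control array, and Pdgfra and Pdgfrb spread widely within both groups.

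Pdgfb encodes the B chain, the ligand that recruits pericytes to growing vessels, and lies at chr15:79995865-80024614 on GRCm38.p6. Its values were 6.83, 6.91, 7.77, 7.41 and 7.78 in Gata4-LSEC-KO replicates 1 to 5, against 5.76, 4.78, 4.95, 5.27 and 5.34 in control replicates 1 to 5. Every Gata4-LSEC-KO array was above every control array. Such separation was found for 4.93% of all genes, and with Gata4-LSEC-KO higher for 2.55%. Within the Gata4-LSEC-KO group, replicates 1 and 2 were the lowest, and among controls the highest value was that of replicate 1. The log2 fold change was 2.12 ± 0.23 (SE) with a 95% interval of 1.61 to 2.64 and an adjusted p of 0.000744 by limma. It was the 38th largest rise and had the 48th smallest p of the 24704 genes. Leaving out any 1 array gave values from 2.01 to 2.26 and adjusted p from 0.000333 to 0.00388. Without control replicate 1 the log2 fold change was 2.26.

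In bulk samples a difference in the number of cells of a type and one in RNA per cell cannot be told apart. Platelets carry PDGF-B protein, and macrophages express the gene. Of 8 measured platelet and megakaryocyte markers none passed (limma), and 1 had an unadjusted p under 0.05, where 13.6% of all genes did. Their list mean was 3.61 to 3.67 in Gata4-LSEC-KO and 3.51 to 3.69 in control arrays, near the median of 3.70 over all genes and arrays. Of these markers Pf4 read 4.55 ± 0.46 in Gata4-LSEC-KO and 4.06 ± 0.24 in control arrays, and Gp9 4.14 ± 0.30 in Gata4-LSEC-KO and 4.38 ± 0.41 in control arrays (SD, n = 5 each). The log2 difference in Gp9 was -0.24, and -0.063 without control replicate 1. Of 10 Kupffer cell and macrophage markers none passed (limma) and none had an unadjusted p under 0.05. Their list means overlapped widely, at 7.05 to 8.06 in Gata4-LSEC-KO and 5.31 to 8.19 in control arrays. The 5.31 was control replicate 1, and the next control stood at 6.88. Of the 10 markers 9 had positive log2 fold changes, with a median of 0.39 against -0.02 over all genes. Without control replicate 1, 6 were positive and the median was 0.11. Neutrophil markers moved with the groups: 5 of 10 passed as higher by limma, where 1.30% of all genes did. They were S100a8 (by 3.16), S100a9 (by 2.78), Ngp (by 2.72), Retnlg (by 2.57) and Ltf (by 1.89 on the log2 scale). The neutrophil list mean was 3.86 to 5.52 in Gata4-LSEC-KO against 2.83 to 3.39 in control arrays. Retnlg lost its call without Gata4-LSEC-KO replicate 4 or control replicate 2, 3, 4 or 5, and the other 4 kept theirs without any 1 array. The part of neutrophils in the Pdgfb result was not tested apart from the groups, because the 2 ranges of the neutrophil list mean do not overlap. With the neutrophil list mean as a covariate, added after seeing the data, no gene passed (limma) and Pdgfb stood at a log2 fold change of 2.50 with an adjusted p of 0.261.

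The genes whose values over the 10 arrays ran closest to those of Pdgfb were ranked by the root mean square (RMS) difference of log2 values after removal of each gene's own mean. Clic5, an intracellular channel-like protein, was nearest (RMS difference 0.34). Trappc5, a subunit of a vesicle tethering complex (0.36), Rbp7, a retinol binding protein (0.37), the Notch ligand gene Jag2 (0.39) and the sialyltransferase gene St8sia4 (0.39) followed. All 5 had log2 fold changes between 2.00 and 2.41 and passed the threshold, which follows largely from their choice by nearness to Pdgfb. Trappc5 lies 26.1 kb from Clec4g, whose control sequences drive the recombinase, on chromosome 8 of GRCm38.p6. Whether the transgene bears on the Trappc5 value was not tested.

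Pdgfa (chr5:138976014-139000792) encodes the A chain, a ligand of PDGFR-alpha. Its values were 5.32, 5.30, 5.15, 5.08 and 5.33 in Gata4-LSEC-KO replicates 1 to 5, against 6.11, 5.01, 5.14, 5.14 and 5.07 in control replicates 1 to 5. Apart from control replicate 1, all 9 arrays lay between 5.01 and 5.33. The log2 fold change was -0.06 ± 0.19 (SE), with a 95% interval of -0.48 to 0.37 and an adjusted p of 0.931 by limma. Without control replicate 1 it was 0.15 with an adjusted p of 0.542, so its sign rests on that array. The gene nearest to it over the 10 arrays was Ear6 (RMS difference 0.090), followed by Olfr314, Ccdc50, Mospd3 and Cpt1c, none of which passed. The log2 fold changes of all 5 were below 0 and lay above 0 without control replicate 1, which follows largely from their choice by nearness to Pdgfa.

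Pdgfc (chr3:81036416-81214040) encodes a ligand that is secreted with an inhibitory CUB domain and released by proteolysis. Its values were 5.78, 6.37, 4.99, 5.50 and 4.58 in Gata4-LSEC-KO replicates 1 to 5, against 3.23, 4.51, 3.62, 4.75 and 3.99 in control replicates 1 to 5. The groups overlapped by 1 array: Gata4-LSEC-KO replicate 5 lay below control replicate 4. The log2 fold change was 1.42 ± 0.36 (SE, 2.68-fold), with a 95% interval of 0.64 to 2.20 and an adjusted p of 0.0724 by limma. Leaving out Gata4-LSEC-KO replicate 5 brought the adjusted p to 0.0357 at a log2 fold change of 1.64. It also passed among the 12352 genes left by a filter on dim ones (adjusted p = 0.0466) and with arrays weighted by quality (adjusted p = 0.0345). Leaving out any other array kept it above the threshold, with adjusted p up to 0.168.

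Markers of bile duct cells (cholangiocytes) and those of smooth muscle and pericytes ran beside Pdgfc. The cholangiocyte list mean was 4.04 to 6.03 in Gata4-LSEC-KO and 3.42 to 4.17 in control arrays. Its members Epcam, Sox9 and Krt7 had log2 fold changes of 2.11, 1.43 and 1.42 without passing (adjusted p 0.0811, 0.0656 and 0.0664 by limma). Krt7 passed without control replicate 1 (1.54, adjusted p = 0.0459) or Gata4-LSEC-KO replicate 3, and Epcam and Sox9 passed without Gata4-LSEC-KO replicate 5. Of 6 measured cholangiocyte markers none passed (limma), and 5 had an unadjusted p under 0.05, where 13.6% of all genes did. Among Gata4-LSEC-KO arrays the order from high to low was replicate 2, 1, 4, 3 and 5 for Pdgfc, for the cholangiocyte list and for the smooth muscle and pericyte list. Among controls the orders differed: replicate 4 was highest in Pdgfc, lowest in the cholangiocyte list and the fourth in the smooth muscle and pericyte list. With 1 marker list mean at a time as a covariate, added after seeing the data, the log2 fold change of Pdgfc was 0.39 with cholangiocytes, 0.65 with neutrophils, 0.68 with smooth muscle and pericytes, 1.05 with fibroblasts, 1.25 with Kupffer cells, 1.36 with hepatocytes and 1.44 with stellate cells, against 1.42 with none. The adjusted p was 0.917 with cholangiocytes and passed with stellate cells alone (0.0443), where it was 0.108 without control replicate 1. Pdgfb stood at 2.88 in the cholangiocyte fit and passed (adjusted p = 0.000633). The log2 fold change of Pdgfc was lower than with no covariate in every fit but that with stellate cells. These fits do not tell the lists apart, and the part of any such cells in the Pdgfc values was not tested beyond them. The genes nearest to Pdgfc over the 10 arrays were Sestd1 (RMS difference 0.30), the collagen lysyl hydroxylase gene Plod2 (0.31), Pamr1 (0.32), Dcdc2a (0.32) and Rgs1 (0.33), none of which passed. Plod2 and Dcdc2a did so without Gata4-LSEC-KO replicate 5.

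Pdgfd (chr9:6168363-6534284) encodes the other CUB domain ligand, which acts mainly on PDGFR-beta. Its values were 7.39, 7.01, 6.04, 6.96 and 6.49 in Gata4-LSEC-KO replicates 1 to 5, against 6.45, 6.57, 6.04, 6.29 and 5.64 in control replicates 1 to 5. Replicates 1, 2 and 4 of the Gata4-LSEC-KO group were above all controls and the other 2 lay within the control range. The log2 fold change was 0.58 ± 0.25 (SE), with a 95% interval of 0.03 to 1.13 and an adjusted p of 0.332 by limma. With the cholangiocyte list mean as a covariate, added after seeing the data, it was -0.075 with an adjusted p of 0.989 by limma. That fit gave -0.018 without control replicate 1. With each of the other marker list means as a covariate, Pdgfd was between 0.41 (hepatocytes) and 0.77 (fibroblasts) and did not pass. The part of bile duct cells in the Pdgfd values was not tested beyond these fits. The genes nearest to Pdgfd over the 10 arrays were Scube3 (RMS difference 0.18), Olfml2a (0.22), Erdr1 (0.22), Sult1c2 (0.23) and Rcan2 (0.23), none of which passed. Erdr1 passed without control replicate 1 (adjusted p = 0.0496) or Gata4-LSEC-KO replicate 3.

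**Figure D2:**
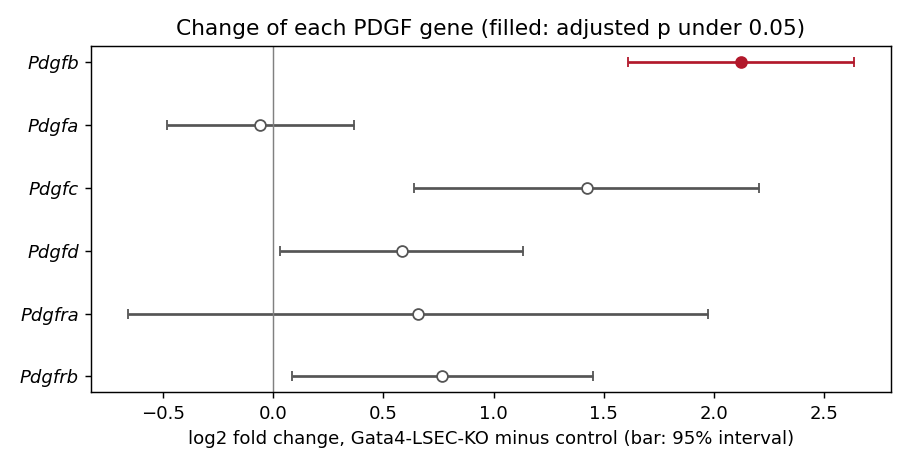
Log2 fold change (x axis, Gata4-LSEC-KO minus control) of the 6 PDGF genes with 95% intervals from the limma fit. The interval of Pdgfb runs from 1.61 to 2.64, that of Pdgfc from 0.64 to 2.20, and those of Pdgfa and Pdgfra include 0. Filled points passed after adjustment over all genes.

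Because the targeted gene encodes a factor that binds GATA sequences, the start regions of Pdgfa, Pdgfc and Pdgfd are shown; those of Pdgfb, the gene that passed, and Pdgfrb are not. RefSeq windows on GRCm38.p6, from 250 bases before to 50 after a start site, were matched for 4 members, namely Pdgfa (2 starts), Pdgfc, Pdgfd and Pdgfra. Capitals mark the GATA spellings AGATAA, the same with a final G (AGATAG), and both of these with a leading T (TGATAA or, with a final G, TGATAG), and the GC box GGGCGG, the spelling bound by SP1, on either strand. The 3 windows below belong to the ligand gene with the smallest change and to both CUB domain ligands, on the gene's own strand.
Pdgfa, chr5:138994895-138995194, minus strand: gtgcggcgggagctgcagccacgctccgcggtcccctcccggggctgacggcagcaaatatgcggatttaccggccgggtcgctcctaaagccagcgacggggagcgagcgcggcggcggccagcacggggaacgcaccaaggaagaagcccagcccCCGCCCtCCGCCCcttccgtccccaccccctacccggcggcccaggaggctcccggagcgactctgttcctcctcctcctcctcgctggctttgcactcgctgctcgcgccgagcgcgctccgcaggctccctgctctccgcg
Pdgfc, chr3:81036166-81036465, plus strand: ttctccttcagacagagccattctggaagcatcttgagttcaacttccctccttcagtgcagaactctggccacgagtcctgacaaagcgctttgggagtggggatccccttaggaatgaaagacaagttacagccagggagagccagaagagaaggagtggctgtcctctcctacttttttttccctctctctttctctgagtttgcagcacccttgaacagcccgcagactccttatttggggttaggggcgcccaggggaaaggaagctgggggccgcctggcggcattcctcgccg
Pdgfd, chr9:6168236-6168535, plus strand: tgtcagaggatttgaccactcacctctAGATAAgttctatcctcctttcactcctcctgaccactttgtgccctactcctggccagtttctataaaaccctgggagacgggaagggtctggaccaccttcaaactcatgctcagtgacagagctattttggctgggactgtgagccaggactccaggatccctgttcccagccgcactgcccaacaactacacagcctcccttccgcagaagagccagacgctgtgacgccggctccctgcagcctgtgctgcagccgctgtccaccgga
Of the 5 windows, 1 held a GATA spelling, that of Pdgfd, where AGATAA begins at position -223 from the start site. Of all 32851 windows of this length, 29.8% held one. The Pdgfa window printed here held 2 GC boxes, both reading GGGCGG on the opposite strand, next to each other without overlap. The window of its downstream start, chr5:138994232-138994531, held 1. Those of Pdgfc and Pdgfra held neither motif, and 35.7% of all windows held a GC box. The GATA and GC box matches did not overlap in any window, and a match of letters is not evidence of binding.

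Neither PDGF receptor gene passed. Pdgfra (chr5:75151322-75198206) encodes PDGFR-alpha, which in the liver marks stellate cells and fibroblasts. Its values were 5.30, 7.15, 6.60, 5.00 and 6.23 in Gata4-LSEC-KO replicates 1 to 5, against 3.18, 5.61, 5.45, 6.55 and 6.21 in control replicates 1 to 5. Control replicate 1 was the lowest of the 10 arrays, and the ranges of the other arrays largely coincided. The log2 fold change was 0.66 ± 0.60 (SE), with a 95% interval of -0.66 to 1.97 and an adjusted p of 0.694 by limma. Without control replicate 1 it was 0.10 with an adjusted p of 0.948.

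Pdgfrb (chr18:61045127-61085067) encodes PDGFR-beta, the receptor of pericytes and stellate cells for PDGF-B. Its values were 5.88, 7.36, 7.13, 6.00 and 6.54 in Gata4-LSEC-KO replicates 1 to 5, against 5.04, 5.96, 5.79, 6.24 and 6.04 in control replicates 1 to 5. Replicates 2, 3 and 5 of the Gata4-LSEC-KO group were above all controls, and replicates 1 and 4 lay within the control range. The log2 fold change was 0.77 ± 0.31 (SE), with a 95% interval of 0.09 to 1.45 and an adjusted p of 0.296 by limma. Without control replicate 1 the value was 0.57 and the adjusted p 0.373.

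Both receptor genes ran beside the markers of stellate cells. The stellate list mean was 6.22 to 7.69 in Gata4-LSEC-KO and 5.87 to 7.72 in control arrays. Of 13 measured stellate markers none passed (limma) and 2 had an unadjusted p under 0.05, where 13.6% of all genes did. Their median log2 fold change was -0.20 against -0.02 over all genes. The list median was -0.43 without control replicate 1. Des, the muscle filament gene that stellate cells express, had a log2 fold change of 0.98 (adjusted p = 0.241), and 0.59 without control replicate 1. Rgs5 was at 0.70 (adjusted p = 0.614), and at 0.15 without that array, and the nerve growth factor receptor gene Ngfr at -0.57 (adjusted p = 0.188). The order of arrays from high to low was the same for Pdgfra and the stellate list, at replicates 2, 3, 5, 1 and 4 in the Gata4-LSEC-KO group and 4, 5, 2, 3 and 1 in the control group. The fibroblast list had the same order in the Gata4-LSEC-KO group and another one, 5, 3, 4, 2 and 1, in the control group. Pdgfrb had that order in the control group and differed from it in the Gata4-LSEC-KO group by the exchange of replicates 1 and 4. With the stellate list mean as a covariate, added after seeing the data, the log2 fold changes were 0.70 for Pdgfra (adjusted p = 0.0219) and 0.79 for Pdgfrb (adjusted p = 0.0185). The same fit without control replicate 1 gave Pdgfra 0.55 (adjusted p = 0.0289) and Pdgfrb 0.85 (adjusted p = 0.0245).

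Markers of smooth muscle, pericytes and fibroblasts had higher list means in most Gata4-LSEC-KO arrays. All 9 smooth muscle and pericyte markers had positive log2 fold changes with a median of 0.77. Without control replicate 1, 8 were positive and Cnn1 stood at -0.053. Over all arrays 1 of 9 passed by limma, where 1.30% of all genes passed as higher: Cspg4, the pericyte proteoglycan NG2 (0.70 ± 0.15, adjusted p = 0.0398). Cspg4 kept its call only without Gata4-LSEC-KO replicate 3 or control replicate 2 (adjusted p up to 0.106 otherwise). Rgs4, Myh11 (smooth muscle myosin) and Abcc9 had values of 1.23, 1.15 and 0.96 with adjusted p of 0.191, 0.108 and 0.0952; Myh11 passed without control replicate 3 (adjusted p = 0.0455) and Abcc9 without control replicate 4 (adjusted p = 0.0479). The list mean was 6.57 to 7.70 in Gata4-LSEC-KO and 5.36 to 6.81 in control arrays, and that of fibroblasts 5.27 to 6.62 in Gata4-LSEC-KO and 4.52 to 5.52 in control arrays. Of 9 fibroblast markers 1 passed by limma, Pi16 (1.44 ± 0.23, adjusted p = 0.0085). Among the 9, 7 were positive with a list median of 0.64, and 5 with a median of 0.32 without control replicate 1. The collagen genes Col1a1 and Col1a2 stood at 1.23 (adjusted p = 0.0951) and 0.78 (adjusted p = 0.342). With the smooth muscle and pericyte list mean as a covariate, Pdgfra was at -0.58 (adjusted p = 0.762) and Pdgfrb at 0.23 (adjusted p = 0.843). With the fibroblast list mean they were at -0.50 (adjusted p = 0.705) and 0.16 (adjusted p = 0.855). Once control replicate 1 was left out, Pdgfra was at -0.046 with smooth muscle and pericytes and at -0.48 with fibroblasts, and Pdgfrb at 0.34 and 0.16. Thus the sign of Pdgfra and the calls of both receptor genes depended on which mesenchymal list entered the fit. The genes nearest to Pdgfra over the 10 arrays were Steap4 (RMS difference 0.24), the proteoglycan gene Lum (0.26), Col14a1 (0.28), Tgfbi (0.29) and Rgs5 (0.29). Those nearest to Pdgfrb were Gpx3 (0.23), Col1a2 (0.24), Mamdc2 (0.25), Col3a1 (0.26) and Col6a3 (0.27). None of these 10 passed. The log2 fold changes of Steap4, Lum and Tgfbi, positive over all arrays, were -0.30, -0.049 and -0.12 without control replicate 1, and that of Col14a1 was 0.38 in place of 0.81. Rgs5, Lum, Col1a2 and Col3a1 also belong to the mesenchymal lists above.

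**Figure D3:**
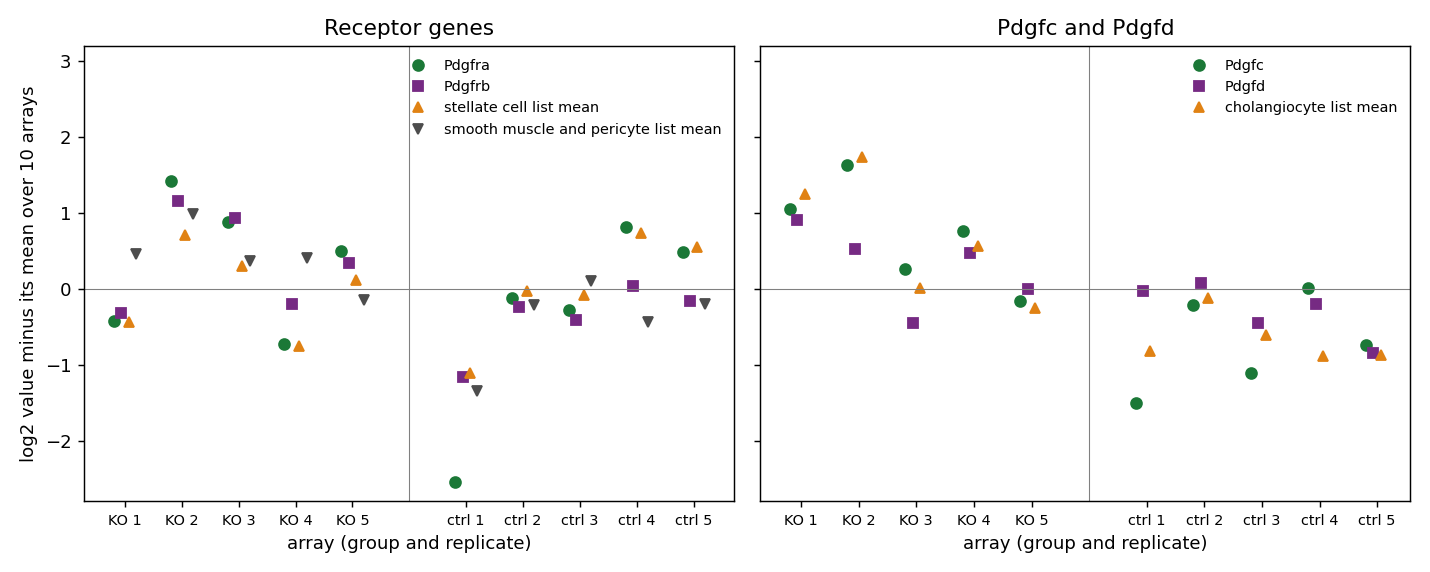
Log2 value minus its own mean over the 10 arrays (y axis) for the receptor genes with the stellate and the smooth muscle and pericyte list means (left), and for Pdgfc and Pdgfd with the cholangiocyte list mean (right), on each array (x axis; KO, Gata4-LSEC-KO; ctrl, control). Pdgfra and the stellate list share the order of arrays within each group, and Pdgfc shares it with both the cholangiocyte list and the smooth muscle and pericyte list among the Gata4-LSEC-KO arrays.

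To ask whether Pdgfb shifted by a different amount than each other member, its log2 value was set against that of the other gene within every array. The difference between Pdgfb and Pdgfa averaged 2.10 ± 0.51 in Gata4-LSEC-KO and -0.08 ± 0.26 in control arrays (SD, n = 5 each), a shift of 2.18. The shift against Pdgfd was 1.54 (0.56 ± 0.95 in Gata4-LSEC-KO and -0.98 ± 0.55 in control arrays) and that against Pdgfrb 1.35 (0.76 ± 0.74 in Gata4-LSEC-KO and -0.59 ± 0.75 in control arrays). These 3 shifts had an adjusted p of 0.0397 in 2-sided exact permutation tests, adjusted over 5 pairs. The shift against Pdgfc was 0.70 ± 0.64 (SE) with an adjusted p of 0.310, and that against Pdgfra 1.47 ± 0.82 (SE) with an adjusted p of 0.169 in the same exact tests. The smallest unadjusted p that 5 against 5 arrays allow is 0.00794. Pdgfb thus shifted upward relative to Pdgfa, Pdgfd and Pdgfrb, and its shift was not told apart from those of Pdgfc and Pdgfra. The reference gene was the member that passed by limma, so these shifts hold its own rise and are not separate support for it. The call against Pdgfa was kept without any 1 array. The call against Pdgfd was lost when Gata4-LSEC-KO replicate 3 or 5 was left out, or control replicate 2, 3 or 4, with an adjusted p of at most 0.0926. The call against Pdgfrb ended without any 1 array except Gata4-LSEC-KO replicate 2 and control replicate 1 (up to 0.106). Without control replicate 1 the shift against Pdgfra was 2.16 with an adjusted p of 0.0265.

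**Figure D4:**
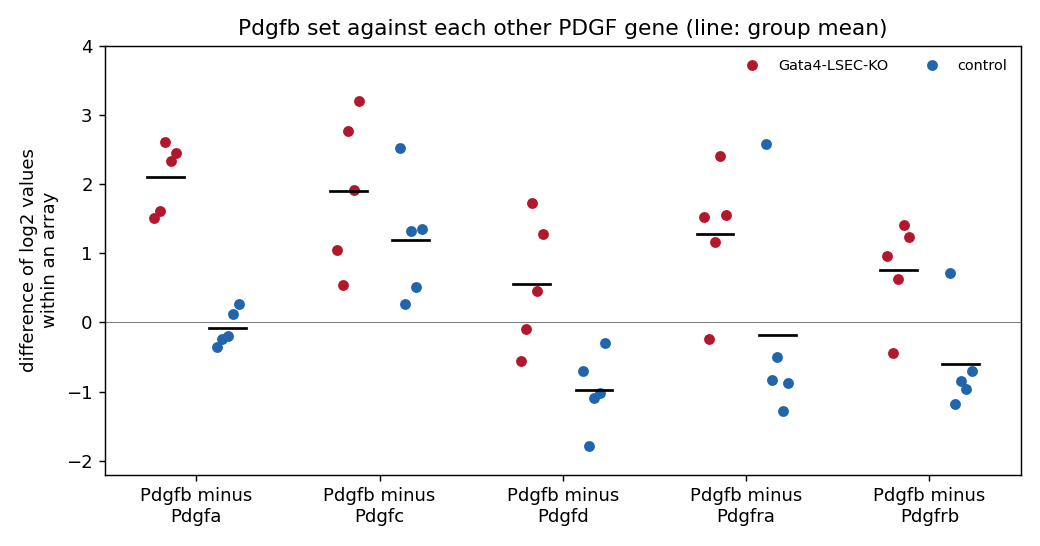
Difference of log2 values within an array (y axis), Pdgfb minus each other PDGF gene (x axis), for Gata4-LSEC-KO (red) and control (blue) arrays, with lines at group means. The groups separate completely for Pdgfa, while control replicate 1 lies above all Gata4-LSEC-KO arrays for Pdgfra and among them for Pdgfrb.

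Genes around the pathway were described in 7 lists, chosen with earlier results of these data known. Of 63 genes measured in them, 7 passed, all higher in Gata4-LSEC-KO, and 56 did not pass. Kit also passed, as lower, without control replicate 1. Over all genes 2.14% passed, 1.30% higher. The 63 had a median log2 fold change of 0.11, against -0.02 over all genes. The 7 were Plat, Plau, Pcsk5, Myc, Smad3, Wt1 and Vegfa.

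Proteases that mature the ligands held 3 of these 7, among 7 measured, where 1.30% of all genes passed as higher. The protease list had a median log2 fold change of 0.55. Plau, urokinase, which can activate PDGF-D, read 6.70, 6.96, 6.81, 6.89 and 6.94 in Gata4-LSEC-KO replicates 1 to 5, against 5.94, 6.00, 6.09, 5.97 and 6.05 in control replicates 1 to 5. Both groups were narrow and did not overlap, and the log2 fold change was 0.85 ± 0.09 (SE, 1.80-fold, adjusted p = 0.000732 by limma). Plat, tissue plasminogen activator, which can activate PDGF-C, read 6.33, 6.81, 6.35, 6.41 and 6.60 in Gata4-LSEC-KO replicates 1 to 5, against 4.96, 5.48, 6.10, 4.96 and 5.45 in control replicates 1 to 5. Its groups did not overlap either. Its log2 fold change was 1.11 ± 0.21 (SE, 2.16-fold, adjusted p = 0.0187), and the call ended without Gata4-LSEC-KO replicate 2 (adjusted p = 0.0576). Pcsk5, a proprotein convertase, rose by 0.55 ± 0.09 (SE, adjusted p = 0.00874) between group means of 3.82 in Gata4-LSEC-KO and 3.27 in control arrays, on either side of the median over all genes. Furin, the convertase best known for processing the A and B chains, stood at 0.21 ± 0.12 (SE, adjusted p = 0.492). St14 had the largest change of the list, 1.45 ± 0.35 (SE, adjusted p = 0.0605), and passed without Gata4-LSEC-KO replicate 5 (adjusted p = 0.0201). Its order of arrays was that of the cholangiocyte list in both groups, and the part of such cells in its values was not tested. Furin, for its role, and St14 are named after their values were seen.

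Genes that bind the ligands or hold them in the matrix did not pass: 0 of 9 by limma, with 3 at an unadjusted p under 0.05, where 13.6% of all genes were. Ext1, an enzyme of heparan sulfate synthesis, had a log2 fold change of 0.56 (adjusted p = 0.147), and Hspg2, which encodes perlecan, 0.44 (adjusted p = 0.165). Of 15 genes of receptor-proximal signalling, 0 passed by limma and 5 had an unadjusted p under 0.05. The adaptor genes Nck2 and Gab1 stood at 0.96 (adjusted p = 0.155) and 0.48 (adjusted p = 0.184). Of 6 genes that attenuate the receptors, 0 passed by limma and 2 had an unadjusted p under 0.05. Among them the ubiquitin ligase gene Cblb was at 0.62 (adjusted p = 0.103) and the phosphatase gene Ptprj at 0.60 (adjusted p = 0.171). These lists had medians of 0.21, 0.10 and 0.19.

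Of 7 measured early PDGF response genes, 1 passed, where 1.30% of all genes passed as higher. It was Myc, a transcription factor of growth, at 1.70 ± 0.18 (SE, adjusted p = 0.000732 by limma). Its values were 6.72 to 7.57 in Gata4-LSEC-KO, against 5.01 to 5.65 in control arrays. The list median was 0.48 (0.29 without control replicate 1), and the other 6 did not pass. Of 8 factors known at PDGF ligand promoters, 2 passed as higher, against the same 1.30% of all genes. Wt1, a zinc finger factor that can repress the PDGFA promoter in human cells, rose by 0.91 ± 0.17 (SE, adjusted p = 0.0184), at 4.45 to 5.38 in Gata4-LSEC-KO and 3.77 to 4.17 in control arrays. Wt1 is also a marker of mesothelium. That list mean was 4.66 to 5.40 in Gata4-LSEC-KO and 4.59 to 4.96 in control arrays. Wt1 and Gpm6a were its 2 of 6 members past the threshold as higher, where 1.30% of all genes were. Gpm6a had an adjusted p of 0.0467 by limma, a call kept only without control replicate 1 or 2. The part of mesothelium in the Wt1 value was not tested. Smad3, a mediator of TGF-beta signalling, rose by 0.61 ± 0.13 (SE, adjusted p = 0.0387). Wt1 did not pass when control replicate 4 or 5 was left out, reaching an adjusted p of 0.0578. Smad3 lost its call without any 1 array except Gata4-LSEC-KO replicates 3 and 4 and control replicate 1 (up to 0.0971).

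Among 12 relatives of the ligands and receptors, 1 passed by limma, where 1.30% of all genes passed as higher: Vegfa. This gene encodes a growth factor of vessels that is related in sequence to the PDGF chains. It read 7.06, 7.27, 6.24, 6.25 and 6.87 in Gata4-LSEC-KO replicates 1 to 5, against 5.41, 5.25, 5.46, 5.19 and 5.15 in control replicates 1 to 5. The groups did not overlap, and the log2 fold change was 1.45 ± 0.20 (SE, 2.73-fold, adjusted p = 0.00312). The list median was 0.02, with 6 members positive and 6 negative. The median was -0.10 without control replicate 1, and Kit, a receptor tyrosine kinase of the PDGF receptor family, also passed with a log2 fold change of -1.13 (adjusted p = 0.0169), against -0.79 (adjusted p = 0.347) with all arrays.

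**Figure D5:**
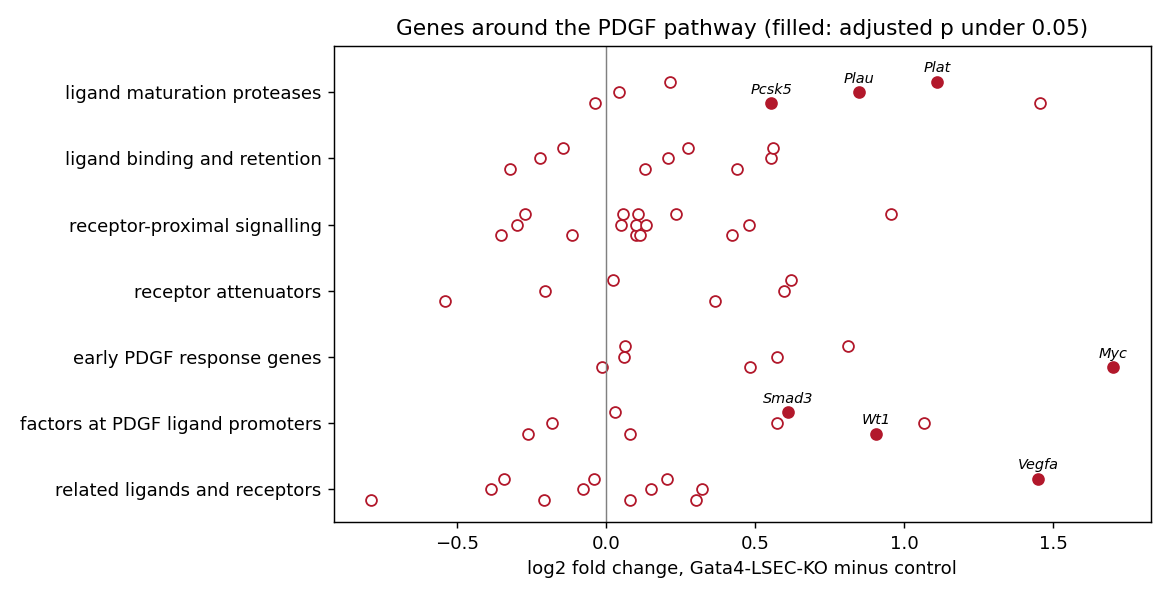
Log2 fold change (x axis, Gata4-LSEC-KO minus control) of the measured genes in 7 lists around the PDGF pathway (rows), one point per gene; vertical offsets within a row have no meaning. Filled, named points passed after adjustment over all genes, and all 7 genes lie to the right of 0.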

How the data were processed

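RNA was hybridised to 1-colour Affymetrix arrays. The authors deposited 1 table of normalized log2 values; RMA is the tool named, per the submitters' processing notes, and the log2 scale was judged from the values. Of 25428 probe sets, 24705 had 1 gene symbol, 0 several and 723 none; symbols were updated by Entrez number against RefSeq (24673 matched, 0 changed). The brighter probe set was kept where 2 shared a symbol, which left 24704 genes. Limma (version 3.58.1, R version 4.3.3) compared 5 Gata4-LSEC-KO with 5 control arrays (lmFit, eBayes, no trend, no filter), with Benjamini-Hochberg adjustment over all genes and a threshold of 0.05. Each p refers to variation among pools (3 mice each), and the number of arrays limits the precision. The members and lists were chosen with earlier results of these data known. Named genes were all members, list genes past the threshold (up to 4, or the 2 with the smallest p), up to 3 markers with the largest change plus those past the threshold, and the 5 genes nearest to each member, without predicted genes and small RNAs. Other named markers serve as checks. Within-array differences between members were tested by exact permutation. Alternatives left out arrays, weighted them, filtered dim genes, recentred, blocked or added a marker list mean. Some list genes are not analysed here. The fit was tested on simulated data.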

Additional observations from a re-analysis of the deposited data

Results flagged for a closer look

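In 38 groups of 5 arrays (19 genes), the gap between the extreme array and its nearest neighbour was compared with the group's range. It exceeded Dixon's critical value of 0.71 in 3 of the 38 groups. By chance about 1 in 20 groups would exceed it, so the number of flags is near that share. All 3 were control replicate 1. It read 6.11 for Pdgfa, with the next control at 5.14. It was the lowest control for Cblb, at 4.95 with the next at 5.70, and for Gab1, at 5.46 with the next at 6.06. This array also stood apart across all genes.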

How the results depend on the processing

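The rise of Pdgfb kept its direction and call under every setting run except 2: the exact permutation test over all genes (log2 fold change 2.12, adjusted p = 0.161, the smallest that 5 against 5 arrays gave any gene) and the neutrophil covariate (2.50). Under that exact test 0 of 6 members and 0 of all genes passed, with 3389 genes at an unadjusted p under 0.05. Leaving out 1 array gave log2 fold changes of 2.01 to 2.26 for Pdgfb, -0.13 to 0.15 for Pdgfa (above 0 only without control replicate 1), 1.19 to 1.64 for Pdgfc, 0.43 to 0.77 for Pdgfd, 0.10 to 0.94 for Pdgfra and 0.57 to 0.94 for Pdgfrb, and 1 to 2 members past the threshold. The list counts ranged from 2 to 4 for maturation proteases, 0 to 2 for promoter factors and 1 to 2 for relatives, and stayed at 1 for early response genes. The shift of Pdgfb ranged from 2.05 to 2.33 against Pdgfa, 0.37 to 1.04 against Pdgfc, 1.25 to 1.82 against Pdgfd, 1.18 to 2.16 against Pdgfra and 1.19 to 1.68 against Pdgfrb. Array weights gave 2 members (Pdgfc at 1.27), 2 relatives and Pdgfa at 0.099. The filter on dim genes gave 2 members, with Pdgfc at 1.42. Centring on pan-endothelial genes gave 1 promoter factor and moved the median of all genes by 0.023. The covariates, added after seeing the data, gave with stellate cells Pdgfc 1.44, Pdgfra 0.70 and Pdgfrb 0.79, all past the threshold. They gave Pdgfa values above 0 with smooth muscle and pericytes (0.37), fibroblasts (0.13), neutrophils (0.14) and Kupffer cells (0.059). They gave Pdgfra values below 0 with smooth muscle and pericytes (-0.58), fibroblasts (-0.50) and neutrophils (-0.16), and Pdgfd -0.075 with cholangiocytes. Repeated without control replicate 1, these fits gave ranges of 2.26 to 2.95 for Pdgfb (6 of 7 past the threshold, 2.54 with neutrophils not), 0.12 to 0.19 for Pdgfa (0.17 with stellate cells, 0.16 with hepatocytes), 0.28 to 1.31 for Pdgfc, -0.018 to 0.77 for Pdgfd, -0.48 to 0.55 for Pdgfra (-0.046 with smooth muscle and pericytes, -0.31 with neutrophils, past the threshold at 0.55 with stellate cells) and 0.066 to 0.86 for Pdgfrb (past it at 0.85 with stellate cells). The cause of these changes was not tested. Over all genes, 529 passed in the fit without alternatives, 287 to 737 with 1 array left out, 1070 with array weights, 334 after centring on pan-endothelial genes, and 239, 246, 70 and 0 with the smooth muscle, fibroblast, cholangiocyte and neutrophil covariates.

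Same-numbered arrays did not deviate together (correlations over genes of -0.16 to 0.039), so these values gave no sign that the numbers pair the samples. With the replicate number as a block 275 genes passed against 529, Pdgfb stayed at 2.12 (adjusted p = 0.0129), and 0 promoter factors passed. In the paired sign-flip test, whose smallest p is 0.0625, the shifts of Pdgfb against Pdgfa (2.18), Pdgfd (1.54) and Pdgfrb (1.35) had an adjusted p of 0.104.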
